A study of Mus musculus with 10 samples.

Results

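The genes described here are 8 genes of the cell's response to osmotic stress and of water transport, chosen by name from the 21877 gene symbols of a read-count table of mouse peritoneum. They are Nfat5, the transcription factor of the hypertonic response; Slc5a3, Slc6a6 and Slc38a2, which carry osmolytes into cells; Slc12a2, the sodium-potassium-chloride cotransporter NKCC1; and the water channels Aqp1, Aqp3 and Aqp7. All 8 were in the table and all 8 passed the filter on low counts. The male C57BL/6 mice were Mr1-/-, without the molecule that presents antigen to mucosal-associated invariant T cells, or Mr1+/+. They received intraperitoneal 4.25% peritoneal dialysis (PD) fluid or the same volume of PBS for 6 weeks, and the labels used here give no age. The labels give 2 libraries of Mr1-/- PD fluid, 2 of Mr1-/- PBS, 3 of Mr1+/+ PD fluid and 3 of Mr1+/+ PBS.

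PD fluid with this much glucose is hyperosmotic. A hypertonic medium draws water out of cells, and NFAT5 then moves to the nucleus and raises the transcription of transporters that import compatible osmolytes such as myo-inositol and taurine, while ion cotransporters restore volume within minutes. Aquaporins let water follow the gradient, and AQP1 in capillary endothelium is the water channel of peritoneal ultrafiltration. AQP3 and AQP7 also pass glycerol, and AQP7 is known as the glycerol exit channel of adipocytes.

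Libraries held 14145635 to 16335799 counts. Replicates 1 and 2 of Mr1-/- PD fluid, and replicates 1 and 2 of Mr1+/+ PBS, were far more alike than other replicates. Their chi-square per gene was 1.74 and 2.23, against 18.6 to 118 in the other 6 pairs within groups. Each near-identical pair was summed and counted as 1 sample, which left n = 1 for Mr1-/- PD fluid, n = 2 for Mr1-/- PBS, n = 3 for Mr1+/+ PD fluid and n = 2 for Mr1+/+ PBS. Mr1 averaged 2.25 ± 0.255 CPM in Mr1-/- samples (SD, n = 3) and 27.7 ± 4.66 CPM in Mr1+/+ samples (SD, n = 5), with no overlap (exact two-sided permutation test, p = 0.0357, the smallest this design can give). CPM here are counts scaled to a common library size, with TMM factors. The tissue carried mesothelial marker RNA, 81.1 to 490 CPM summed over 8 markers, and little of skeletal muscle, 14.2 to 36.9 CPM. Mr1+/+ PBS replicate 3 stood apart. Its 8 intestinal markers summed to 2211 CPM, against 24.6 to 36.0 CPM in the other 9 libraries. Its 8 pancreatic acinar markers summed to 23372 CPM, against 140.0 to 4745 CPM in the others. The acinar sum was 4622 to 4745 CPM in Mr1-/- PD fluid libraries and 257 to 624 CPM in Mr1-/- PBS libraries. It was 140.0 to 3536 CPM in Mr1+/+ PD fluid libraries. The part of this RNA in the values of the 8 genes was not tested.

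In 3 members all Mr1+/+ PD fluid samples lay above the Mr1+/+ PBS samples, as in 25.0% of all tested genes. Their promoters are shown because NFAT5 and nuclear receptors act through sites in such regions. The sequences are the 250 bases before the start in RefSeq (GRCm38.p6), read 5′ to 3′ on the gene's strand. Capitals mark TGGAAA, the core of the NFAT5 site, or AGGTCA, the nuclear receptor half-site, on either strand. The windows are chr4:41048137-41048386 on the minus strand for Aqp7, chr6:55336049-55336298 on the plus strand for Aqp1 and chr16:92058072-92058321 on the plus strand for Slc5a3.
Aqp7: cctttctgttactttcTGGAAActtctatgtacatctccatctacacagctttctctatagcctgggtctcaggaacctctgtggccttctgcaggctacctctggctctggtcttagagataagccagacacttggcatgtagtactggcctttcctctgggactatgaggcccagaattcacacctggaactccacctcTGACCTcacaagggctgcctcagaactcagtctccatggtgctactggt
Aqp1: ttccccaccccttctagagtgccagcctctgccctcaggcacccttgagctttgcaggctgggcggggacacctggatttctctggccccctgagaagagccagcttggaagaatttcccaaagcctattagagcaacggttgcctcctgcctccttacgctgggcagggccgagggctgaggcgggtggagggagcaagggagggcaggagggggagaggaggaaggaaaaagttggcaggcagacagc
Slc5a3: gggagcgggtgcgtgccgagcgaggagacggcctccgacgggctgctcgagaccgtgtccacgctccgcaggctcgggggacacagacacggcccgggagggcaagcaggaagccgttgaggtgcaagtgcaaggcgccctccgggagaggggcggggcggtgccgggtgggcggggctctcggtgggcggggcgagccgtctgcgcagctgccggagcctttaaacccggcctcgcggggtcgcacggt
The Aqp7 window held 1 TGGAAA on its own strand, whose first base is 234 bases before the start and which also met the longer TonE consensus. It held 1 AGGTCA on the opposite strand, 49 bases before the start. A second annotated Aqp7 start, downstream, has a window with AGGTCA on the opposite strand at 223 and 101 bases before it. Neither hexamer was in the Aqp1 or Slc5a3 windows, nor in those of Nfat5, Slc38a2 and Aqp3. Of 32851 mouse promoter windows of this length, 18.6% held TGGAAA, 14% held AGGTCA and 4.31% held the TonE consensus, so these matches only describe the letters present. Slc6a6 and Slc12a2 have no promoter shown.

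The members spanned a wide range of levels. Per kilobase of annotated exon, the mean over 8 samples was 149 ± 52.3 CPM per kb (SD) for Aqp1, 37.8 ± 8.25 for Slc38a2, 31.9 ± 5.16 for Slc6a6, 18.3 ± 10.5 for Aqp7 and 9.78 ± 2.93 for Nfat5. Slc12a2 at 3.41 ± 1.16, Slc5a3 at 3.22 ± 0.879 and Aqp3 at 2.96 ± 0.627 CPM per kb lay within each other's spread. The samples of the neighbours Slc38a2 (26.5 to 49.4 CPM per kb) and Slc6a6 (22.9 to 37.2 CPM per kb) overlapped. Aqp7 varied most among samples, with its highest sample 4.33 times its lowest. Slc6a6 varied least, at 1.62 times.

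**Figure D1:**
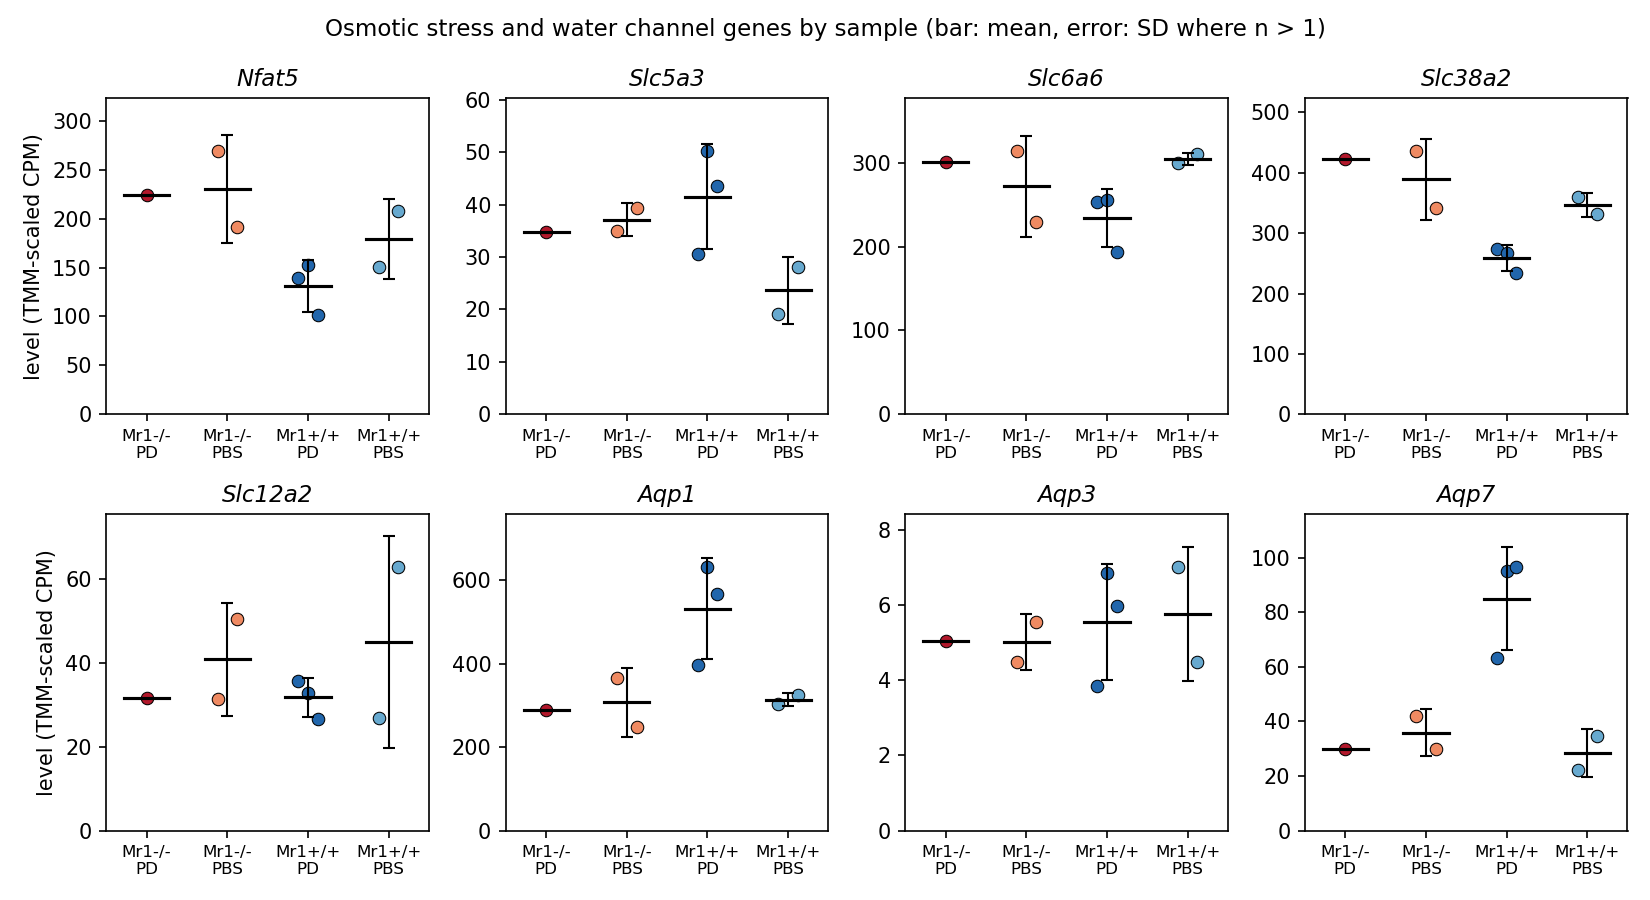
Level of each of the 8 genes (TMM-scaled CPM, linear axes from 0) in 8 samples of 4 groups; points are samples, bars are means and error bars are SD where a group has more than 1 sample. All 3 Mr1+/+ PD fluid samples of Aqp7, between 63.1 and 96.6 CPM, lie above every other sample.

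Among the water channels, Aqp7 (ENSMUSG00000028427.13; mm10 chr4:41033074-41048139, minus strand) rose with PD fluid in Mr1+/+ mice. It had 63.1, 95.0 and 96.6 CPM in Mr1+/+ PD fluid samples, against 22.3 and 34.8 CPM in Mr1+/+ PBS samples. The lowest PD fluid sample was above the highest PBS sample, as in 25.0% of all tested genes. The difference was 2.98-fold, a log2 fold change of 1.58 with a standard error (SE) of 0.29 (edgeR quasi-likelihood test, Benjamini-Hochberg adjusted p = 0.0174). Aqp7 was the 1 member of 8 called in this comparison at an adjusted p under 0.05, where 14.9% of all 15385 tested genes were called, 8.49% higher and 6.37% lower. The call was lost without Mr1+/+ PD fluid replicate 2 (log2 1.51, adjusted p = 0.056) and without replicate 3 (log2 1.47, adjusted p = 0.0697).

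Aqp1 (mm10 chr6:55336432-55348555, plus strand) had 397, 632 and 567 CPM in Mr1+/+ PD fluid samples, against 302 and 324 CPM in Mr1+/+ PBS samples. The groups did not overlap, which was also so for 50.7% of all tested genes, 25.0% with PD fluid higher. Its log2 fold change was 0.76 (SE 0.24) and missed the threshold (edgeR adjusted p = 0.0679). Aqp1 was called by DESeq2 (adjusted p = 0.00776) and by edgeR with only the groups compared (adjusted p = 0.0499). It was also called with 10 separate libraries (edgeR adjusted p = 0.00811), which count each near-identical pair as independent samples. Without Mr1+/+ PD fluid replicate 1, the lowest of the 3, its log2 fold change was 0.94 and called (edgeR adjusted p = 0.0349). Without Mr1+/+ PD fluid replicate 2 it fell to 0.64 and was not called. Aqp3, the epidermal and renal aquaglyceroporin, lies near Aqp7 at mm10 chr4:41092722-41098183. It had 3.84, 6.84 and 5.96 CPM in Mr1+/+ PD fluid samples, against 7.01 and 4.49 CPM in Mr1+/+ PBS samples. The groups overlapped, and the log2 fold change was -0.06 with an SE of 0.35 (edgeR adjusted p = 0.921).

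The osmolyte transporters went in different directions. Slc5a3, the sodium/myo-inositol cotransporter and a classical NFAT5 target, had 30.6, 50.3 and 43.6 CPM in Mr1+/+ PD fluid samples, against 19.2 and 28.2 CPM in Mr1+/+ PBS samples. All PD fluid samples were above both PBS samples, as in 25.0% of all tested genes. The log2 fold change of 0.81 (SE 0.25) missed the threshold (edgeR adjusted p = 0.0636). Slc5a3 was called by DESeq2 (adjusted p = 0.016) and by edgeR with no filter on low counts (adjusted p = 0.0492). It was also called with 10 separate libraries (edgeR adjusted p = 0.00827), which count each near-identical pair as independent samples. Without Mr1+/+ PBS replicate 3, which leaves 1 Mr1+/+ PBS sample, its log2 fold change was 1.11. Without Mr1+/+ PD fluid replicate 1 it was 0.99 and called (edgeR adjusted p = 0.0313). Without Mr1+/+ PD fluid replicate 2 it fell to 0.67 and was not called. Slc5a3 shares 159 of its 10913 exon bases, 1.46%, with Mrps6 on the same strand, a mitochondrial ribosome gene whose own log2 fold change was 0.92 (SE 0.27, edgeR adjusted p = 0.0529). How reads in the shared bases were assigned is not given in the sources used here.

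Slc6a6, the taurine transporter, had 253, 255 and 194 CPM in Mr1+/+ PD fluid samples, against 299.8 and 309.8 CPM in Mr1+/+ PBS samples. Slc38a2, the amino acid transporter SNAT2, had 273, 268 and 234 CPM in Mr1+/+ PD fluid samples, against 361 and 332 CPM in Mr1+/+ PBS samples. In both genes every PD fluid sample was below both PBS samples, as in 25.6% of all tested genes. The log2 fold changes were -0.38 (SE 0.19, edgeR adjusted p = 0.191) for Slc6a6 and -0.42 (SE 0.16, edgeR adjusted p = 0.107) for Slc38a2, and neither passed the test. Slc38a2 was called by DESeq2 (adjusted p = 0.0424). It was also called with 10 separate libraries (edgeR adjusted p = 0.0145), which count each near-identical pair as independent samples.

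Nfat5 itself had 139.7, 153 and 101 CPM in Mr1+/+ PD fluid samples, against 151 and 208 CPM in Mr1+/+ PBS samples. The groups overlapped, and the log2 fold change was -0.45 (SE 0.24, edgeR adjusted p = 0.215), and -0.20 without Mr1+/+ PBS replicate 3 (edgeR adjusted p = 0.641). Slc12a2 had 35.7, 32.8 and 26.6 CPM in Mr1+/+ PD fluid samples, against 26.9 and 62.8 CPM in Mr1+/+ PBS samples. The 62.8 CPM belong to Mr1+/+ PBS replicate 3, the library with the most intestinal and pancreatic marker RNA. The log2 fold change was -0.49 (SE 0.37, edgeR adjusted p = 0.383) with that library and 0.24 without it (edgeR adjusted p = 0.594).

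In Mr1-/- mice no member was called for PD fluid. No gene of the 15385 was called there by edgeR (0.0%), although 231 were under 0.05 without adjustment and DESeq2 called 11. DESeq2 gave no adjusted p for 9247 of these genes. The comparison rests on 1 PD fluid sample, whose spread is taken from the other groups. Its libraries held 4622 to 4745 CPM of pancreatic acinar markers, against 257 to 624 CPM in Mr1-/- PBS libraries, and their part was not tested. Aqp7 had 29.7 CPM in the Mr1-/- PD fluid sample, against 42.0 and 29.8 CPM in Mr1-/- PBS samples, with a log2 fold change of -0.27 (SE 0.37). It was -0.00345 without Mr1-/- PBS replicate 1 and -0.50 without replicate 2. Aqp1 had 289 CPM in the Mr1-/- PD fluid sample, against 366 and 249 CPM in Mr1-/- PBS samples, with a log2 fold change of -0.09 (SE 0.32). Slc5a3 had 34.7 CPM in the Mr1-/- PD fluid sample, against 34.9 and 39.4 CPM in Mr1-/- PBS samples, with a log2 fold change of -0.10 (SE 0.33). In these 3 genes the single PD fluid value lay within or just below the PBS values.

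The other 5 members gave log2 fold changes in Mr1-/- mice between -0.37 (SE 0.51) for Slc12a2 and 0.14 (SE 0.25) for Slc6a6. Nfat5 had 224 CPM in the Mr1-/- PD fluid sample, against 269.5 and 191 CPM in Mr1-/- PBS samples. Slc38a2 had 423 CPM in the Mr1-/- PD fluid sample, against 437 and 342 CPM in Mr1-/- PBS samples. Slc6a6 had 300.2 CPM in the Mr1-/- PD fluid sample, against 314 and 229 CPM in Mr1-/- PBS samples. In these 3 genes the PD fluid value lay between the PBS values. Aqp3 had 5.05 CPM in the Mr1-/- PD fluid sample, against 4.49 and 5.55 CPM in Mr1-/- PBS samples. Slc12a2 had 31.5 CPM in the Mr1-/- PD fluid sample, against 31.3 and 50.3 CPM in Mr1-/- PBS samples. Both again lay between the PBS values. The 50.3 CPM belong to replicate 2, where the 8 smooth muscle and pericyte markers summed to 5725 CPM, against 1415 CPM in replicate 1, and their part was not tested.

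**Figure D2:**
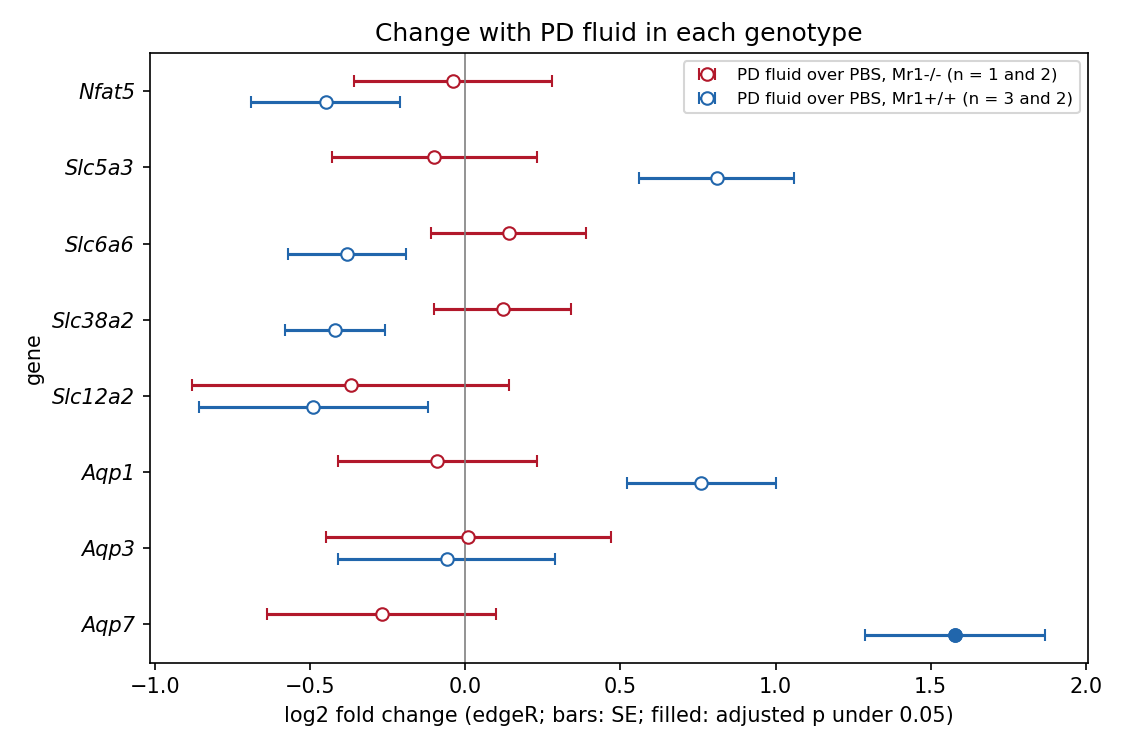
Log2 fold change of PD fluid over PBS (x axis) for each gene in Mr1-/- (red) and Mr1+/+ (blue) mice; bars are SE, and a filled point has an edgeR adjusted p under 0.05. Aqp7 in Mr1+/+ mice, at 1.58, is the filled point, and its Mr1-/- value is -0.27.

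The difference between the genotypes in the PD fluid effect was tested as an interaction, and no member was called. edgeR called no gene here (0.0%), 2037 genes were under 0.05 without adjustment, and 488 were called by DESeq2. DESeq2 gave no adjusted p for 5667 of the 15385 genes. Aqp7 gave an interaction of -1.85 (SE 0.47) on the log2 scale, with an unadjusted p of 0.00454 and an edgeR adjusted p of 0.272. With 10 separate libraries its adjusted p was 0.0168, a value that counts each near-identical pair as independent samples, and by DESeq2 it was 0.00654. The next members were Slc5a3 at -0.91 (SE 0.42, edgeR adjusted p = 0.395) and Aqp1 at -0.85 (SE 0.41, edgeR adjusted p = 0.409). For Nfat5, Slc6a6 and Slc38a2 the interaction was 0.41 to 0.54, and for Slc12a2 and Aqp3 the SE of 0.62 and 0.58 exceeded the estimate several times over.

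Under PD fluid, Mr1-/- and Mr1+/+ samples did not overlap in 5 of the 8 members, where 70.0% of all tested genes did not overlap with a lone Mr1-/- sample. Aqp7 at 29.7 CPM in the Mr1-/- sample was below all 3 Mr1+/+ samples, a log2 fold change of -1.52 (SE 0.37, edgeR adjusted p = 0.149). Aqp1 was also lower, at -0.88 (SE 0.32, edgeR adjusted p = 0.2), while Nfat5 at 0.77 (SE 0.29, edgeR adjusted p = 0.21), Slc38a2 at 0.71 (SE 0.20, edgeR adjusted p = 0.154) and Slc6a6 at 0.36 (SE 0.24, edgeR adjusted p = 0.442) had the higher value in the Mr1-/- sample. None passed the test, and 0.013% of all genes did. DESeq2 called Aqp7, Aqp1 and Slc38a2 in this comparison, where it called 1036 of the 15385 tested genes. It gave no adjusted p for 5667 genes.

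Under PBS, Slc5a3 was the member with the clearest separation between genotypes. It had 34.9 and 39.4 CPM in Mr1-/- PBS samples, against 19.2 and 28.2 CPM in Mr1+/+ PBS samples. The log2 fold change was 0.65 (SE 0.27) and missed the threshold after adjustment (unadjusted p = 0.0423, edgeR adjusted p = 0.566), in a comparison where 0.013% of genes were called. The other 7 members overlapped between genotypes under PBS, and 38.6% of all tested genes did not. Averaged over genotypes, PD fluid gave no called member, with Aqp7 at 0.65 (SE 0.22, edgeR adjusted p = 0.231), where 0.0195% of genes were called.

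Aqp7 was highest in the libraries with the most adipocyte marker RNA. The 8 adipocyte markers summed to 9942 to 16010.3 CPM in Mr1+/+ PD fluid libraries and 3389 to 4105 CPM in Mr1+/+ PBS libraries, and 7 of the 8 were called higher (median log2 fold change 1.70). They summed to 5023 to 5053 CPM in Mr1-/- PD fluid libraries and 4133 to 6185 CPM in Mr1-/- PBS libraries, and no adipocyte marker was at 0 in any group. Aqp7 was 0.578% to 0.848% of that sum in all 10 libraries, 0.606% to 0.764% in Mr1+/+ PD fluid and 0.617% to 0.848% in Mr1+/+ PBS. In bulk tissue, more cells of a type and more RNA per cell cannot be told apart. The part of the adipocyte RNA in the Aqp7 difference was not tested.

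Aqp1 was highest in the libraries with the most blood endothelial marker RNA. The 8 endothelial markers summed to 1697 to 2095 CPM in Mr1+/+ PD fluid libraries, against 1089 to 1211 CPM in Mr1+/+ PBS libraries, with 4 of 8 called higher. Aqp1 was 23.2% to 31.4% of that sum across the 10 libraries. Red cells also carry AQP1. The 7 erythroid markers summed to 85.4 to 241 CPM in Mr1+/+ PD fluid libraries, against 17.2 to 35.7 CPM in Mr1+/+ PBS libraries, with 3 of 5 tested called higher. Aqp1 was 166% to 2586% of the erythroid sum across the 10 libraries. The 8 B cell markers were all called lower, at 1126 to 1257 CPM summed in Mr1+/+ PD fluid libraries, against 2012 to 3216 CPM in Mr1+/+ PBS libraries. Their part in the values of the 8 genes was not tested.

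**Figure D3:**
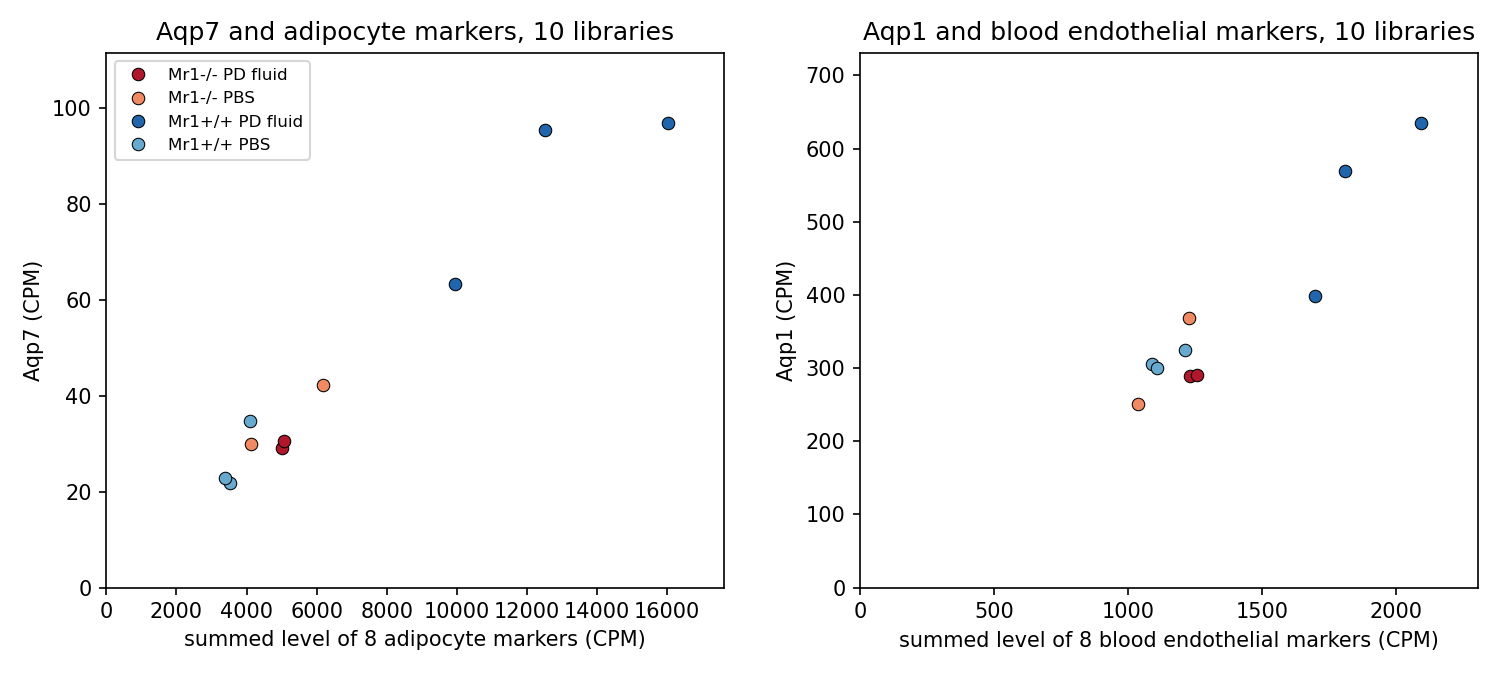
Left, Aqp7 (CPM) against the summed CPM of 8 adipocyte markers; right, Aqp1 against the summed CPM of 8 blood endothelial markers, with 1 point per library (10) coloured by group and axes from 0. The 3 Mr1+/+ PD fluid libraries are the highest on both axes of both panels, and Aqp7 stays at 0.578% to 0.848% of the marker sum.

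The genes with the most similar pattern over the 8 samples, by Pearson's r of log2 CPM among 11530 genes, are given as a description. For Aqp7 they were Lipe, hormone-sensitive lipase, at 0.995, Csad, an enzyme of taurine synthesis, at 0.995, and Net1 at 0.993. For Aqp1 they were Cd93, an endothelial surface protein, at 0.984, the adiponectin receptor Adipor2 at 0.981 and C1qtnf6 at 0.979. Those nearest Slc5a3 were Canx, Klhl9 and Zbtb16 (0.971 to 0.980), and those nearest Nfat5 were Emsy, Pdik1l and Usp9x (0.987 to 0.988). Those nearest Slc38a2 were Baz1a, Lrrfip1 and Fam149b (0.982 to 0.992), and those nearest Slc6a6 were Rbl2, Ikbkg and Zfp106 (0.967 to 0.978). Slc12a2 was nearest Pde9a, Arhgef39 and Prkaa2 (0.958 to 0.964), and Aqp3 was nearest Cry1, Adck1 and Tlnrd1 (0.944 to 0.961). Among the members, Aqp1 and Aqp7 had r = 0.94 and Nfat5 and Slc38a2 had r = 0.89, while Nfat5 and Slc5a3 had r = -0.13.

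Other genes of the same pathways were read in Mr1+/+ mice against the same 14.9% of genes called. Of 11 tested NFAT5 targets and osmolyte enzymes, 1 rose and 1 fell with PD fluid, and the list's median log2 fold change was 0.63, against -0.06 over all genes. Vegfc, a lymphatic growth factor, averaged 13.7 ± 1.65 CPM in Mr1+/+ PD fluid samples (SD, n = 3) and 6.05 ± 0.68 CPM in Mr1+/+ PBS samples (SD, n = 2), a log2 fold change of 1.18 (SE 0.23, edgeR adjusted p = 0.0182). Slc2a1, the glucose transporter GLUT1, fell to 29.6 ± 3.37 CPM in Mr1+/+ PD fluid samples, against 49.4 ± 8.71 CPM in Mr1+/+ PBS samples (edgeR adjusted p = 0.0308). Among the classical targets, the betaine transporter Slc6a12 gave 1.16 (SE 0.53, edgeR adjusted p = 0.162) and did not pass. Its level was low, at 15 to 28 counts in Mr1+/+ PBS libraries and 32 to 53 counts in Mr1+/+ PD fluid libraries. Aldose reductase Akr1b3, at 0.20 (SE 0.18, edgeR adjusted p = 0.464), did not pass either. The list's count of calls was 0 without Mr1+/+ PD fluid replicate 2 and without replicate 3, where 339 and 0 of all tested genes were called. It was 3 without replicate 1 of that group, where 2151 of all tested genes were called.

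Of 9 tested aquaporins only Aqp7 was called, and the list's median was -0.06. The widest value, -10.43 (SE 3.42, edgeR adjusted p = 0.115), belonged to Aqp8, an intestinal and pancreatic channel. Aqp8 had 1952 counts, 137 CPM, in Mr1+/+ PBS replicate 3 and 0 to 7 counts in each other library. Aqp12 (7.39 CPM), Aqp11 (11.5 CPM) and Aqp4 (3.66 CPM) were also highest in that library. Aqp5 and Aqp9 did not pass the test, and Aqp2, Aqp6 and Mip did not pass the filter on low counts.

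Of 14 tested cation-chloride cotransporters and their kinases, 1 rose and 2 fell in Mr1+/+ mice. Slc12a4, the potassium-chloride cotransporter KCC1, averaged 51.8 ± 0.819 CPM in PD fluid samples and 37.2 ± 1.85 CPM in PBS samples (edgeR adjusted p = 0.0428). Slc12a7, KCC4, averaged 139.4 ± 19.7 CPM in PD fluid samples and 209.6 ± 0.648 CPM in PBS samples, and fell by 0.59 on the log2 scale (SE 0.15, edgeR adjusted p = 0.0398). The kinases Wnk1, Stk39 and Oxsr1, which act on these carriers, gave -0.39, 0.49 and -0.01 and did not pass.

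Of 14 volume regulation channels and pumps, 2 rose. Fxyd1, a regulator of the sodium pump, had 32.7 to 66.4 CPM in Mr1+/+ PD fluid samples (n = 3), against 15.7 and 17.3 CPM in Mr1+/+ PBS samples (log2 1.55, SE 0.28, edgeR adjusted p = 0.0173). Lrrc8a, the essential subunit of the volume-regulated anion channel, gave 0.70 (SE 0.21, edgeR adjusted p = 0.0577). Of 14 amino acid and inositol transporters and enzymes, 1 rose and 3 fell. Slc1a5, a glutamine carrier, had 858 to 1029.9 CPM in Mr1+/+ PD fluid samples (n = 3), against 553 and 567 CPM in Mr1+/+ PBS samples (log2 0.77, SE 0.16, edgeR adjusted p = 0.0226). Slc38a1 at -1.02, Slc7a5 at -0.93 and Slc7a11 at -1.26 on the log2 scale fell (edgeR adjusted p = 0.016, 0.0299 and 0.0385), the last being the cystine importer.

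Of 9 genes of glycerol handling, 5 rose, and the median was 1.31. Beside Aqp7 these were the lipases that release glycerol from triglyceride, Pnpla2 (log2 1.31), Lipe (1.31) and Mgll (1.61), and Gpd1 (1.51), with SE of 0.21 to 0.25 and edgeR adjusted p of 0.0124 to 0.0142. Mgll averaged 669.8 ± 131 CPM in Mr1+/+ PD fluid samples and 219 ± 50.6 CPM in Mr1+/+ PBS samples. The adipocyte marker sums given above moved with these genes, and their part was not tested. Glycerol kinase Gk gave -0.87 (SE 0.43, edgeR adjusted p = 0.196). Without Mr1+/+ PD fluid replicate 3 no gene of any list was called, nor was any of all 15356 genes tested there. The main edgeR fit called no gene of any list in the other comparisons, where it called 0.0% to 0.0195% of all tested genes.

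**Figure D4:**
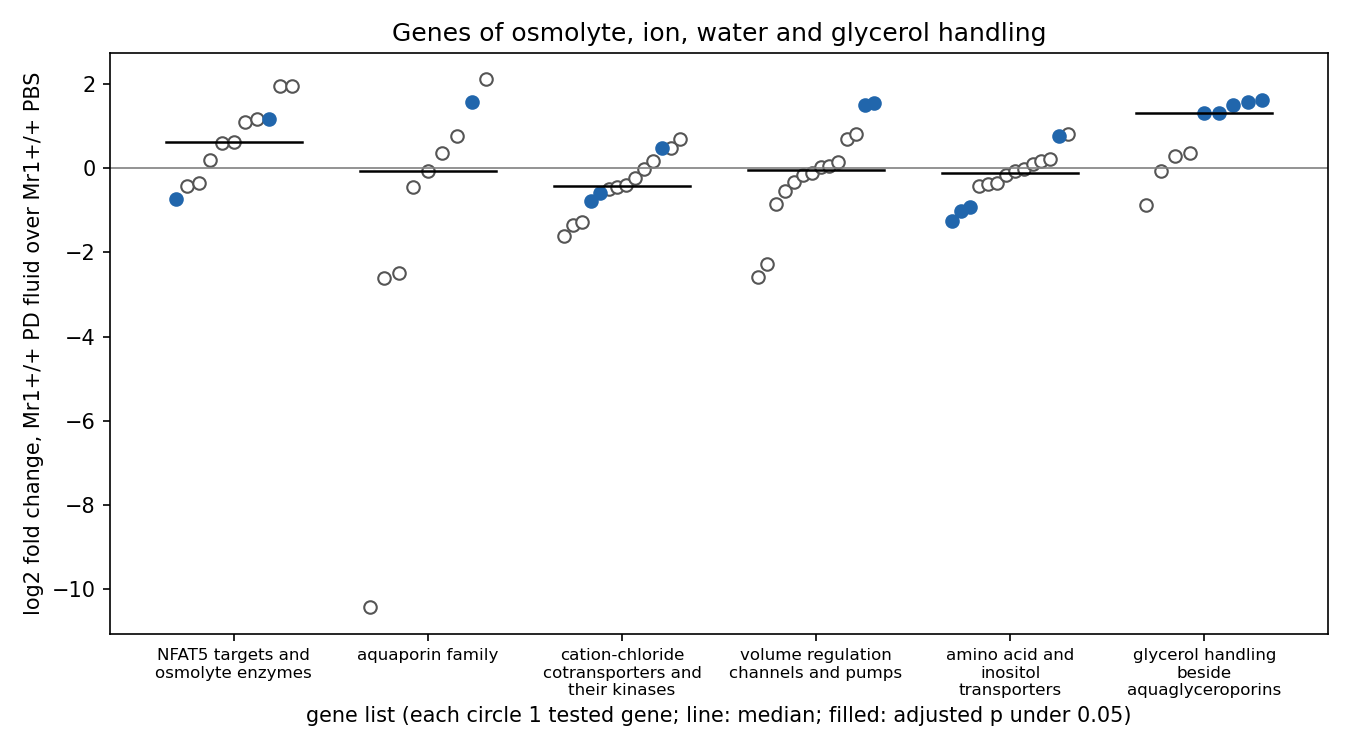
Log2 fold change of Mr1+/+ PD fluid over Mr1+/+ PBS (y axis) for every tested gene of 6 lists; circles are genes, filled where the edgeR adjusted p is under 0.05, and lines are list medians. The glycerol handling list has the highest median, 1.31, and the circle at -10.43 is Aqp8.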

How the data were processed

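The values are raw counts of reads per gene, whole numbers as the authors deposited them, on mm10 per the submitters' processing notes. No aligner, counter or annotation is named in the sources used here. No strand-marking step and no molecular identifiers are named, per the labels' protocols. The 21899 rows were summed to 21877 symbols, of which 97.0% matched GENCODE M21, the source of exon lengths and overlaps. Near-identical library pairs were summed, which left 8 samples, and no label links a library to an animal, so the spread behind each p-value may be technical. Genes passing filterByExpr (15385) were tested with edgeR 4.0.16 (R 4.3.3): TMM, quasi-likelihood F tests on 4 group means, 4 residual degrees of freedom, Benjamini-Hochberg adjustment over all tested genes. SE were derived from the fold change and F statistic. DESeq2 1.42.0, 10 separate libraries, no filter, only the groups compared, a replicate block and leaving out each library were alternatives. Members and lists were chosen with earlier results of these data known. All 8 members were named, every called list gene (up to 6 per direction) or, with none, those with the smallest p, and the 3 most similar genes per member with mean CPM of at least 5. Some genes that this rule takes are left out of the text. Uncalled list genes outside that rule (Slc6a12, Akr1b3, Aqp11, Wnk1, Stk39, Lrrc8a, Gk) and Mrps6 were named after their values were seen. The rule takes Aqp4, Aqp8, Aqp12 and Oxsr1 only in comparisons other than PD fluid in Mr1+/+ mice. These genes were also named after their values were seen.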

Additional observations from a re-analysis of the deposited data

How the results depend on the processing

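Each member's log2 fold change in each of 6 comparisons was recomputed under every alternative, 752 values in all. Of these, 682 kept their direction and side of the threshold, 31 kept the direction and passed the threshold only under the alternative, 2 lost the call and 37 changed sign. The 2 lost calls were Aqp7 for PD fluid in Mr1+/+ mice without Mr1+/+ PD fluid replicate 2 or replicate 3. No sign change was of a called value. The groups hold 1 to 3 samples, which limits every comparison, and most values that passed only under an alternative came from 10 separate libraries, DESeq2 or the replicate block. Except where fewer samples or genes entered by construction, the cause was not tested.

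The main fit called 2286 of 15385 tested genes and 1 member for PD fluid in Mr1+/+ mice. With 10 separate libraries, which count each near-identical pair as independent samples, 5549 of 14815 genes and 4 members were called. DESeq2 called 3845 of 15385 genes and 4 members, and 895 genes had no adjusted p. With no filter on low counts, 2328 of 18078 genes and 2 members were called. With only the groups compared, these were 2505 of 14385 genes and 2 members. The 4 members were Aqp7, Aqp1, Slc5a3 and Slc38a2 with 10 separate libraries and by DESeq2. Slc5a3 joined Aqp7 with no filter, and Aqp1 joined it with only the groups compared. The same totals were tested in the other comparisons, except with only the groups compared. The number of genes without an adjusted p from DESeq2 differed, with 9247 for PD fluid in Mr1-/- mice and 0 for genotype under PBS. It was 5667 for genotype under PD fluid and for the interaction, and 1492 averaged over genotypes. For PD fluid in Mr1-/- mice, 2 genes were called with 10 separate libraries and 11 by DESeq2. For genotype under PBS, 50 genes were called with 10 separate libraries, 211 by DESeq2, 6 with no filter and 0 with only the groups compared. For genotype under PD fluid, 3400 genes and 4 members were called with 10 separate libraries, 1036 genes and 3 members by DESeq2, 7 genes with no filter, and 561 genes and 1 member with only the groups compared. For the interaction, 1490 genes and 1 member were called with 10 separate libraries, and 488 genes and 1 member by DESeq2. For PD fluid averaged over genotypes, 2209 genes and 1 member were called with 10 separate libraries, 846 genes by DESeq2 and 89 with no filter.

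The replicate block was fitted with 10 separate libraries, with 14815 genes tested. It called 5537 genes and 4 members for PD fluid in Mr1+/+ mice (Aqp7, and Aqp1, Slc5a3 and Slc38a2 with adjusted p of 0.0178, 0.0037 and 0.0124), 2428 genes and 3 members for genotype under PD fluid, 1915 genes and 2 members for the interaction (Aqp7 and Slc5a3), and 2595 genes and 1 member averaged over genotypes. Same-numbered Mr1+/+ PD fluid and PBS libraries had deviations from their group means that correlated at 0.153, -0.117 and 0.120, so the numbers were not taken to pair the samples.

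Leaving out 1 library gave 0 to 2751 genes and 0 to 3 members called for PD fluid in Mr1+/+ mice, with 339 genes and 0 members without Mr1+/+ PD fluid replicate 2 and 0 genes without replicate 3. It gave 0 to 1 gene for PD fluid in Mr1-/- mice, 1 to 3 for genotype under PBS, 0 to 33 for genotype under PD fluid, 0 to 1 for the interaction and 0 to 281 averaged over genotypes, with no member in any of these. A group left with 1 sample is assumed to vary like the others.

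All sign changes were in values that were not called. Slc12a2 reached 0.0708 for genotype under PBS and -0.0829 for the interaction with 10 separate libraries. With the replicate block it was 0.307 and -0.190 for the same comparisons and 0.116 for genotype under PD fluid, and Aqp1 was 0.0359 for genotype under PBS. Leaving out 1 library, PD fluid in Mr1+/+ mice gave -0.588 to 0.237 for Slc12a2 and -0.337 to 0.149 for Aqp3. PD fluid in Mr1-/- mice gave -0.266 to 0.229 for Nfat5, -0.258 to 0.0506 for Slc5a3, -0.0652 to 0.391 for Slc6a6, -0.0467 to 0.306 for Slc38a2, -0.673 to 0.0119 for Slc12a2, -0.338 to 0.216 for Aqp1 and -0.134 to 0.170 for Aqp3. Genotype under PBS gave -0.412 to 0.0432 for Slc6a6, -0.0186 to 0.333 for Slc38a2, -0.515 to 0.600 for Slc12a2 and -0.330 to 0.223 for Aqp1. Genotype under PD fluid gave -0.117 to 0.0862 for Slc12a2 and -0.341 to 0.0219 for Aqp3. The interaction gave -0.608 to 0.508 for Slc12a2 and -0.140 to 0.347 for Aqp3. The average over genotypes gave -0.224 to 0.00485 for Slc6a6 and -0.164 to 0.0796 for Aqp3.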
